A study of Rattus norvegicus with 6 samples.

Results

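The genes described here encode the parts of the elastic fibre: Fbn1, Eln, Lox, Loxl1, Ltbp1, Ltbp2, Fbln5, Fbln2 and Efemp2. They were chosen by name, with the strain differences of these same arrays already known, so every strain difference of these 9 genes is given as a description and supports no claim of significance. All probe sets whose platform symbol was one of the 9 were taken, which gave 10 of the 15866 probe sets on the array that are not controls. These 10 represent 8 of the 10411 genes that the array covers with a probe set of 1 symbol. No probe set was annotated to Efemp2, which was therefore not analysed here. Fbn1 and Lox had 2 probe sets each.

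Elastic fibres give the lung its recoil. Their outer scaffold is made of microfibrils, polymers of fibrillin, on which the soluble precursor of elastin is deposited with the help of fibulins. Enzymes of the lysyl oxidase family then oxidise lysines so that the chains crosslink, and latent TGF-beta binding proteins tether the inactive growth factor to the same microfibrils. In the developing lung, elastin is laid down at the tips of the forming alveolar walls, largely by myofibroblasts and other mesenchymal cells.

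RNA came from cultures of lung type II epithelial cells, the future makers of surfactant, taken from fetal rats at embryonic day 19. Cultures were grown in serum-free DMEM on silastic membranes with a collagen 1 coat. The 3 strained cultures received 16 h of stretch, which in each hour was 15 min of cyclic strain (5%, 60 cycles per min) and then 45 min of constant distension at 2.5%, and the 3 control cultures were kept unstretched on the same substrate for 16 h. Each strained culture was paired with a control from the same litter, with a different litter for each pair. The labels name the rats as CD, of both sexes, for 5 of the 6 samples. The cells were a primary isolate of fetal lung, grown on a coated membrane rather than in tissue, and their purity is not given in the sources used here. One Affymetrix rat E230A array was run per culture, with median signals from 161.7 to 199.0, and precision is limited by there being 6 arrays. The arrays of pair 1 had a run day of their own and those of pairs 2 and 3 shared another, so that values without pair 1 are also the values within the second run day. Signals below are linear intensities as deposited, and log2 differences are strain minus control on log2(signal + 16), fitted in limma with a block for the pair.

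The labelled cell type was checked against marker genes. Epithelial markers were bright in sum on all arrays, with the summed signal of 14 markers between 48198 and 51770 in control and between 48904 and 51492 in strained cultures. Epcam, an epithelial adhesion protein, ran from 11148 to 12505 in controls and Nkx2-1, the lung epithelial transcription factor, from 4229 to 5116. The surfactant protein genes of the list were lower: over the arrays Sftpc lay between 1111 and 2419, Sftpd between 1366 and 2215 and Sftpb between 350 and 512. Sftpa1 did not exceed 175 and Napsa, another marker of the list, 185.7. Endothelial markers were mostly dim: Pecam1 did not exceed 43.3 and Sox17 did not exceed 3.4 on any array. Esam was the brightest of them, between 399 and 576, with Ramp2 between 163 and 237 and Eng between 34.8 and 192.6. Leukocyte markers were present as well, at summed signals below those of epithelial markers but above those of endothelial markers. Lyz2 lay between 604 and 1576, Fcer1g between 416.5 and 624.8 and Cd74 between 213.3 and 339.2, with Ptprc at no more than 36.8. Mesenchymal genes were present too, since Tagln, a smooth muscle protein, lay between 11730 and 15049 over the 6 arrays and Col1a1 between 3302 and 4650. These are the brightest of their lists by mean signal. Other smooth muscle markers were dimmer, with Des between 163.3 and 245.5, Cnn1 between 92.6 and 267.8 and Myh11 between 33.8 and 222. No marker was listed at a signal of 0.

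Sequence before the annotated gene start is shown for Fbn1 and Ltbp1, because both genes had lower signal in strained cells in all 3 pairs and both are in the RefSeq promoter table of build GRCr8. That table matched 7 of the 9 genes. Each run is the 250 bases before the start, 5′ to 3′ along the gene, from chr3:133203391-133203640 for Fbn1 and chr6:26177302-26177551 for Ltbp1, both on the minus strand. Capitals mark any match, on either strand, to the 7 motifs searched. These were the TATA box, spelled TATAAA, the binding motif of Sp1 known as the GC box, spelled GGGCGG, the CCAAT box, the motif of the AP-1 factors, spelled TGACTCA, the motif of the TEAD factors, spelled GGAATG, a palindromic element of the SMAD factors, spelled GTCTAGAC, and the palindromic E-box, spelled CACGTG.
Fbn1: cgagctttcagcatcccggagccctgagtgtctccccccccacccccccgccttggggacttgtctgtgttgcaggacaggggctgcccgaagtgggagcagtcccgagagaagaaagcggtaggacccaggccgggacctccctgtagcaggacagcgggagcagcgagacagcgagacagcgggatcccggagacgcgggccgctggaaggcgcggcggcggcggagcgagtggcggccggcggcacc
Ltbp1: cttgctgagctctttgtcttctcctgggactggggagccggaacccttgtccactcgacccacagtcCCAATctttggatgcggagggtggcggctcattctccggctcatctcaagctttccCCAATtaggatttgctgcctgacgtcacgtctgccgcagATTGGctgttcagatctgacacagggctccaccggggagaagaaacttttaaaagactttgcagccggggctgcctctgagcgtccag

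The 2 windows differ in letters. The Fbn1 window is 71.2% G or C, against a median of 51.2% over 33469 promoters, and holds none of the motifs searched. The Ltbp1 window is 56.8% G or C and holds CCAAT 3 times, on the given strand beginning 183 and 127 bases before the start and on the opposite strand at 88. CCAAT occurs in 34% of all promoters of this length. Over the 7 matched promoters the GC box was found in 4, against 30.5% of all promoters, and GGAATG in 1, that of Loxl1, against 12.1%. The AP-1, TATA, E-box and SMAD motifs, found in 4.05%, 12.9%, 5.59% and 0.173% of all promoters, were in none of the 7. No motif of the 7 contains another. A match describes letters in a window and not a binding site, and a missing match says nothing about the factor.

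Fbn1 encodes fibrillin 1, the main structural protein of microfibrils. Its brighter probe set, 1368829_at, read 3569, 4482 and 4431 in controls 1 to 3 and 2062, 2394 and 2909 in the strained cultures of the same litters. All 3 strained values lay below all 3 control values. The strained signal was 57.8%, 53.4% and 65.6% of its own control in pairs 1, 2 and 3, and the fitted log2 difference was -0.76 ± 0.10 (SE, n = 3 pairs).

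The other Fbn1 probe set, 1387351_at, gave the same order. It read 3263, 4054 and 3661 in controls and 1633, 2784 and 2891 in strained cultures, again without overlap. Here the difference was largest in pair 1, at 50.04% of control, and smallest in pair 3, at 79.0%, with a fitted log2 difference of -0.62 ± 0.12. In pair 3 the log2 differences of the probe sets were -0.60 and -0.34. Groups without overlap were found for 3.21% of all tested probe sets with strain below control and for 2.86% with strain above.

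**Figure D1:**
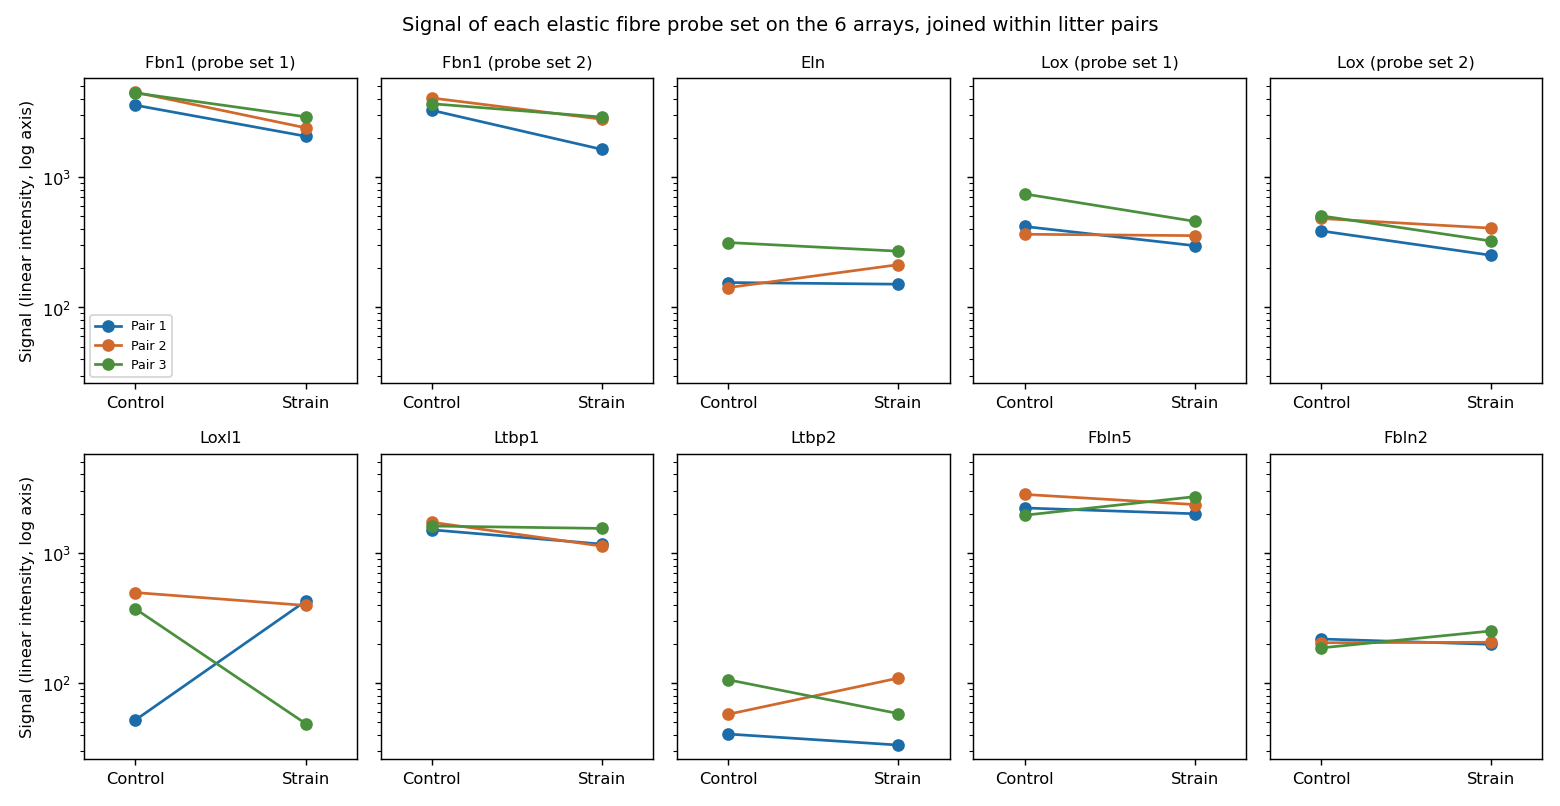
Signal of each of the 10 elastic fibre probe sets (linear intensity on a log axis) in control and strained cultures, with a line joining the cultures of a litter. Both Fbn1 probe sets are lower in all 3 strained cultures without overlap, while Loxl1 crosses from 52 to 426 in pair 1 and from 373 to 49 in pair 3.

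Eln encodes elastin itself, and its single probe set showed no common direction. Signals were 155, 142 and 315 in controls and 151, 213 and 270 in strained cultures. The groups overlapped, and the litter with the highest control value also had the highest strained value. Log2 differences were -0.04, 0.54 and -0.21 in pairs 1, 2 and 3, with a fitted value of 0.10 ± 0.20. Among controls the highest Eln signal was 2.22 times the lowest, a spread between litters wider than any of the strain differences within a pair. The log2 range of controls was 1.07 for Eln, against a median of 0.45 over all tested probe sets, of which 6.62% exceeded a range of 1.

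Lox encodes lysyl oxidase, which starts the crosslinking of elastin and collagen, and both of its probe sets were lower in the strained culture of every pair. Probe set 1368171_at read 419, 365 and 744 in controls and 298, 356 and 458 in strained cultures. Probe set 1368172_a_at read 387, 482 and 505 in controls and 251, 406 and 323 in strained cultures. In both, the groups overlapped, and pair 2 had the smallest difference, at 97.6% and 84.3% of control, while pairs 1 and 3 lay between 61.6% and 71.1%. The fitted log2 differences were -0.39 ± 0.16 and -0.48 ± 0.15. The probe sets differed in how litters varied, since the highest control was 2.04 times the lowest on the first and 1.31 times on the second.

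Loxl1, a lysyl oxidase relative that acts on elastin, had the widest spread of the 10 probe sets. Its signals were 52.0, 496 and 373 in controls and 426, 395 and 49.0 in strained cultures. Control 1 and strained culture 3 were low and the other 4 arrays were alike, so that the log2 differences were 2.70, -0.32 and -2.58. The SD of these 3 differences was 2.65, against a median of 0.23 over all tested probe sets. The fitted log2 difference of -0.07 ± 0.68 therefore averages pairs of opposite sign. The low arrays came from different litters and different run days. Without pair 1 it was -1.45, where limma called it in that fit of 4 arrays, and over the alternatives its value ran from -1.45 to 1.19.

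**Figure D2:**
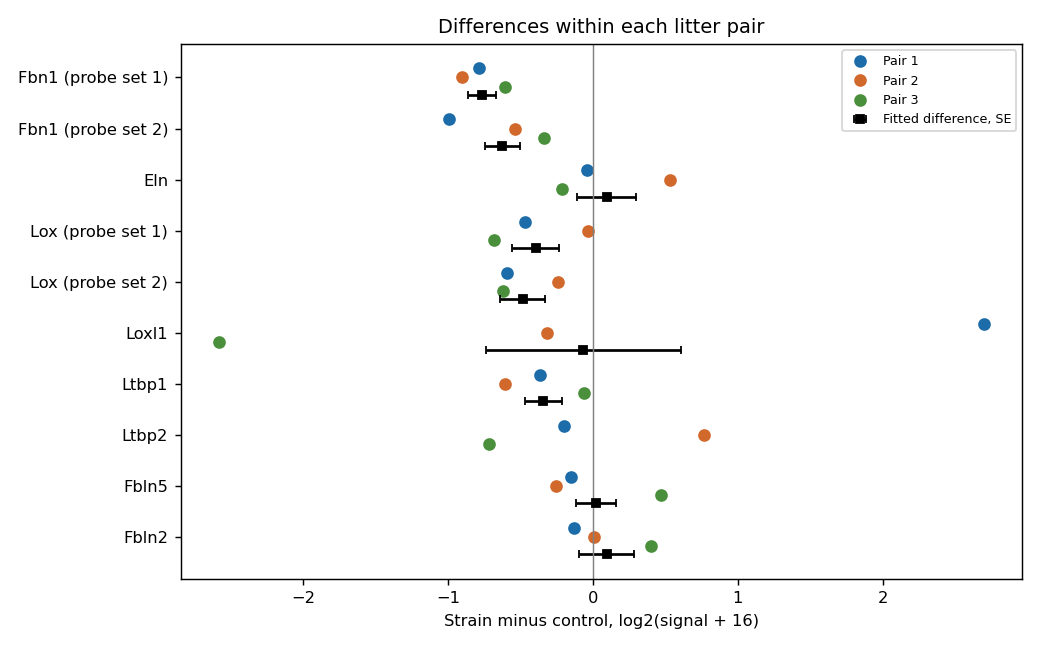
Log2 difference of strain minus control on log2(signal + 16) for each litter pair (coloured points), with the fitted difference and its SE (black squares) for the 9 probe sets that were bright enough to be tested. Fbn1, Lox and Ltbp1 lie below 0 in all 3 pairs, and Loxl1 spans -2.58 to 2.70.

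Ltbp1 and Ltbp2 encode latent TGF-beta binding proteins, of which the first carries the latent growth factor and the second is a microfibril component. Ltbp1 read 1504, 1719 and 1607 in controls and 1167, 1127 and 1541 in strained cultures. Every strained culture was below its own control, at 77.6%, 65.5% and 95.9%, but the strained culture of pair 3 lay above control 1, so the groups overlapped. The fitted log2 difference was -0.34 ± 0.13. Ltbp1 had a narrow range between control litters, with the highest 1.14 times the lowest. Ltbp2 was dim, between 33.5 and 109.4 over the 6 arrays, and did not pass the filter on dim probe sets, which lay at a signal of about 115.6. Its log2 differences were -0.20, 0.77 and -0.72.

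Fibulins link elastin to microfibrils and to cells. Fbln5, which binds elastin and integrins, was bright, at 2212, 2810 and 1945 in controls and 1996, 2349 and 2701 in strained cultures. The strained culture was the lower in pairs 1 and 2 and the higher in pair 3, where it reached 138.9% of control. The fitted log2 difference was 0.02 ± 0.14. Fbln2, a fibulin of basement membranes and elastic fibres, read 218, 204 and 187 in controls and 199, 206 and 252 in strained cultures, with a fitted log2 difference of 0.10 ± 0.19. Pair 3 was also its highest pair, with a log2 difference of 0.40 against -0.13 and 0.01. Both fibulins overlapped between the groups.

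Of the 9 tested probe sets of these genes, 5 were lower in all 3 pairs, those of Fbn1, Lox and Ltbp1, and none was higher in all 3. Over all 9519 tested probe sets 16.4% were lower and 13.7% higher in all 3 pairs. The median fitted log2 difference was -0.34 over the 9 and -0.02 over all tested probe sets, and in pairs 1, 2 and 3 the median over the 9 was -0.36, -0.26 and -0.34. One of the 9, Fbn1 probe set 1368829_at, passed an adjusted p of 0.05 in limma over all tested probe sets, where 0.326% of all passed in either direction, 0.0525% as lower and 0.273% as higher. As the genes were chosen with this contrast known, nothing is read from these counts. The Fbn1 call was not made without the filter on dim probe sets, without a variance trend, without the pair block or with run day as the block, and its fitted log2 difference ran from -0.89 to -0.65 over the alternatives. It was -0.75 within the second run day, and -0.84 over pairs 1 and 2, which shared a chip lot.

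**Figure D3:**
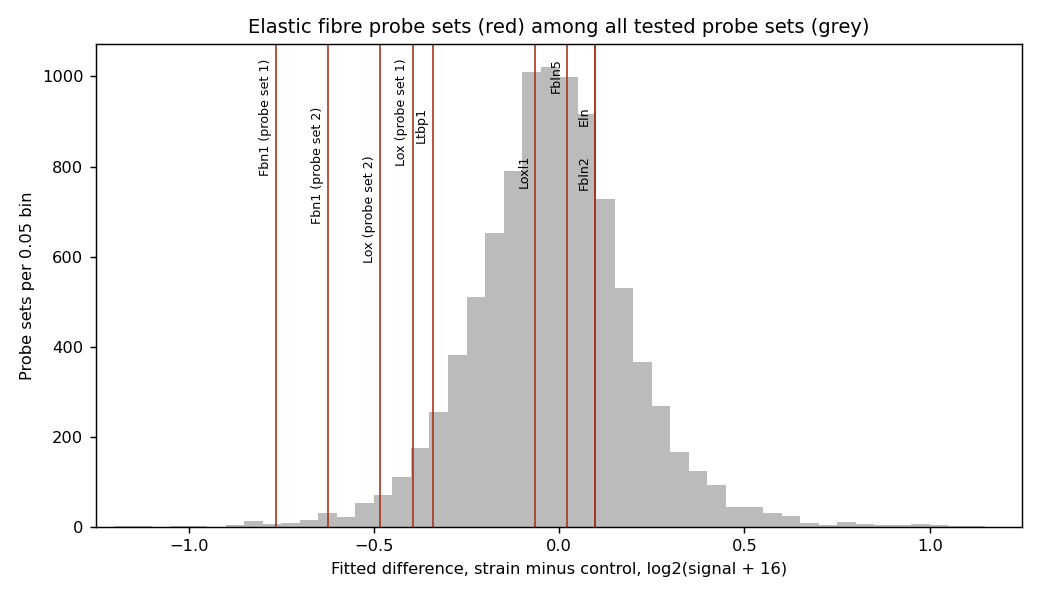
Histogram of the fitted log2 differences of all 9519 tested probe sets (grey, count per 0.05 bin, values beyond the axis not drawn) with the 9 elastic fibre probe sets as red lines. The probe sets of Fbn1, Lox and Ltbp1 lie from -0.76 to -0.34, and the other 4 lie from -0.07 to 0.10.

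The other genes of the pathway were taken from 4 lists of general knowledge, with each gene read on its brightest probe set. None of their 46 tested genes reached an adjusted p of 0.05 in limma's fit with the pair block, where 0.349% of 7163 genes passed, and 11 had an unadjusted p under 0.05, where 9.56% of all genes did. Of the 46 genes, 12 were lower and 7 higher in all 3 pairs, against 16.1% and 14.3% of all genes. The median log2 difference of the 46 was -0.07.

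Among partners of the microfibril, 10 of 11 tested genes had a negative fitted difference, against 53% of all 7163 genes, with a median of -0.23. Fbn2, the fibrillin most abundant before birth, read 1181, 585 and 753 in controls and 278, 289 and 605 in strained cultures. The strained culture was lower in each pair, most in pair 1, and only the strained value of pair 3 overlapped the controls. Its log2 difference was -1.10 ± 0.25 and did not pass (limma adjusted p = 0.15). Biglycan, encoded by Bgn and found on elastic fibres, was at -0.63 ± 0.14 (limma adjusted p = 0.15), with pair differences of -0.83, -0.91 and -0.15. Ltbp3, another latent TGF-beta binding protein, was at -0.36 ± 0.12 and the basement membrane proteoglycan gene Hspg2 at -0.33 ± 0.13, with limma adjusted p-values of 0.36 and 0.45. Fbln1, the remaining fibulin gene tested, was the only gene of this list with a positive value, at 0.24 ± 0.17. Fbn2 and Bgn were called without pair 3, at -1.50 and -0.87 (limma adjusted p of 0.042 and 0.022), and Fbn2 and Tgm2 without pair 2, at -1.17 and -1.01 (limma adjusted p of 0.047 and 0.039).

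Of 12 tested genes of crosslinking and processing, 3 were lower and 3 higher in all 3 pairs, against 16.1% and 14.3% of all genes. Tgm2, a transglutaminase that links fibrillin and other matrix proteins, read 734, 948 and 967 in controls and 285, 630 and 588 in strained cultures. The groups did not overlap, and the log2 difference was -0.87 ± 0.16 (limma adjusted p = 0.064). Tgm1, the transglutaminase of epithelial cells, was in the other direction at 0.61 ± 0.20 (limma adjusted p = 0.34), with pair differences of 0.75, 0.91 and 0.19. Ctsa and Glb1, which encode the protective cathepsin and the beta-galactosidase locus that also gives the elastin-binding protein, were at 0.25 ± 0.10 and -0.27 ± 0.12, and neither passed (limma adjusted p of 0.44 and 0.55).

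TGF-beta ligands, receptors and integrins had a median log2 difference of 0.05 over 11 tested genes. Tgfb3 was at -0.43 ± 0.16 and lower in all 3 pairs (limma adjusted p = 0.41). Tgfb2, the same kind of ligand, read 2634, 1968 and 2432 in controls and 2425, 2468 and 2442 in strained cultures, with no common direction. Tgfbr1, Smad3 and Smad2, a receptor and signal carriers of the pathway, were at 0.38 ± 0.26, -0.18 ± 0.14 and 0.19 ± 0.15, with limma adjusted p-values of 0.72, 0.76 and 0.77.

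Elastases and their inhibitors had a median of -0.06 over 12 tested genes. Timp2, an inhibitor of matrix metalloproteinases, read 3667, 4105 and 3444 in controls and 5422, 5289 and 3679 in strained cultures. It was higher in each pair, least in pair 3, with a log2 difference of 0.34 ± 0.10 (limma adjusted p = 0.29). Timp3, a matrix-bound inhibitor, was at -0.16 ± 0.07 (limma adjusted p = 0.48). The lysosomal protease gene Ctsd was at 0.24 ± 0.09 and the gelatinase gene Mmp2 at -0.22 ± 0.14, with limma adjusted p-values of 0.41 and 0.72. Dimmer tested probe sets of Timp2 and Mmp2 were at 0.21 ± 0.14 and 0.14 ± 0.20. That of Timp2 was slightly lower in pair 2, at -0.03, and that of Mmp2 had the opposite sign to its brighter probe set.

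**Figure D4:**
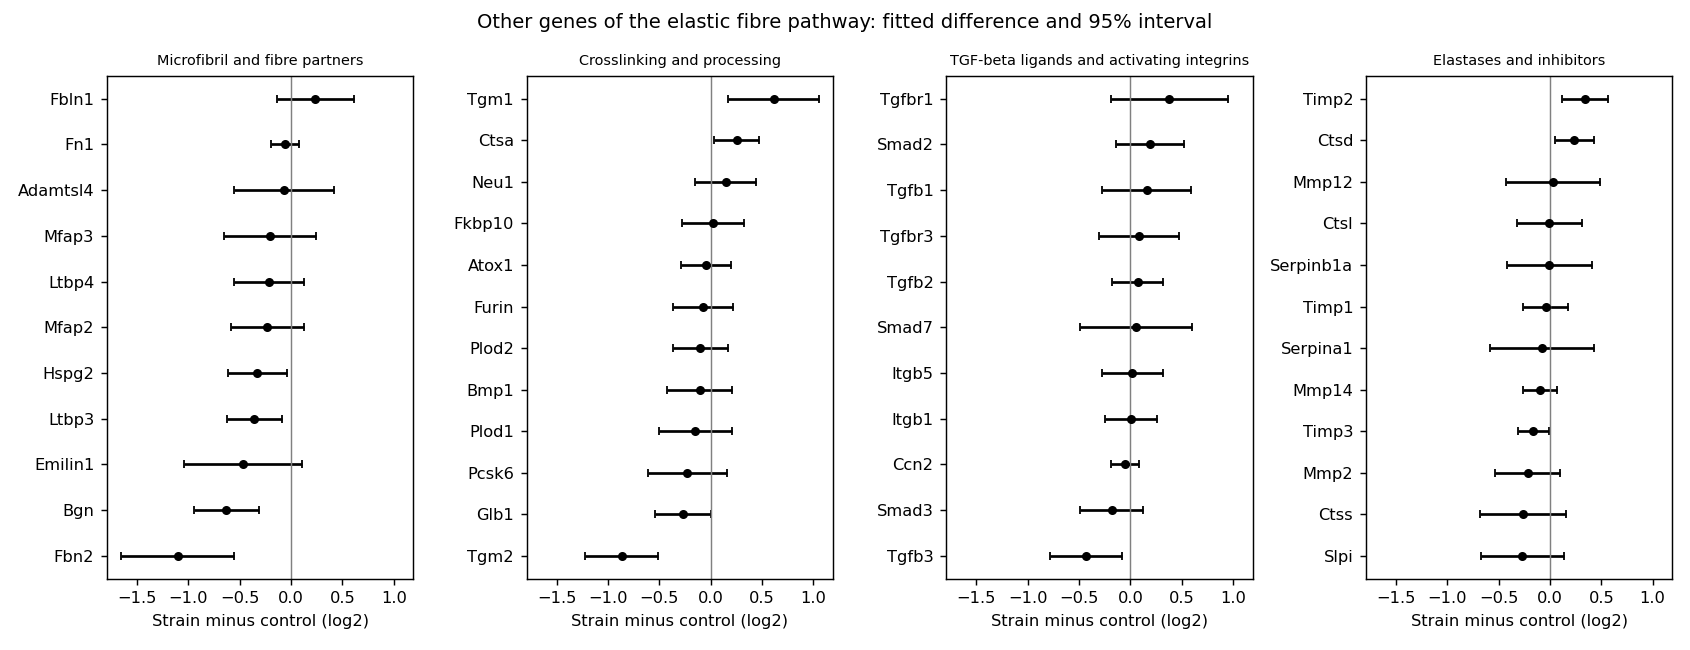
Fitted log2 difference, strain minus control, with its 95% interval for 46 further genes of the elastic fibre pathway, on the brightest probe set of each gene, in 4 lists. Fbn2 at -1.10, Tgm2 at -0.87 and Bgn at -0.63 lie farthest to the lower side, and Tgm1 at 0.61 lies farthest to the higher side.

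Elastic fibre proteins are made mostly by mesenchymal cells, so marker genes of other cell types are set beside them. In RNA from whole cultures, fewer cells of a type and less RNA per cell cannot be told apart. The summed signal of 17 fibroblast markers was 82.7%, 92.7% and 97.8% of control in pairs 1, 2 and 3, with ranges of 10766 to 12685 in controls and 8907 to 12223 in strained cultures. That of 11 smooth muscle and myofibroblast markers was 77.5%, 91.8% and 89.4%, with ranges of 24510 to 28752 and 18999 to 26388. Both sums were lower in all 3 pairs, while the sum of epithelial markers was 100%, 99.5% and 102% of control. Single epithelial markers were less even: of 12 tested, 2 were lower and 3 higher in all 3 pairs, against 16.1% and 14.3% of all genes, and none was called. Sftpc was among the higher ones, at 0.57 ± 0.12 (limma adjusted p = 0.12). The level of the smooth muscle sum is carried largely by Tagln, whose own log2 difference was -0.09 ± 0.07 and was 0.01 in pair 2. Acta2, the next in signal, was lower in each pair. The brightest fibroblast marker by mean, Col1a1, was higher in all 3 pairs. It read 3870, 4447 and 3302 in controls and 4650, 4617 and 3836 in strained cultures. Median log2 differences of the tested fibroblast markers were -0.59, -0.12 and -0.05 in pairs 1, 2 and 3. Those of smooth muscle were -0.69, -0.35 and -0.22.

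Sums of other cell types were lower in part of the pairs. Those of 11 leukocyte markers were 72.5%, 74.2% and 103% of control, with ranges of 3066 to 3808 in controls and 2274 to 3929 in strained cultures. Those of 11 endothelial markers were 78.5%, 85.5% and 114%, with ranges of 1184 to 1243 and 976 to 1345, and those of 3 mesothelial markers were 100%, 75.1% and 136%. Of 8 tested leukocyte markers 7 had negative values, against 53% of all genes, and none was called. Lyz2, a lysozyme gene and the brightest of the leukocyte markers, was lower in all 3 pairs at -0.41 ± 0.13 (limma adjusted p = 0.35). Which cells its signal came from was not tested.

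Single fibroblast markers had values on both sides of 0. None of the 6 tested ones passed in limma, and 4 of the 6 were lower in all 3 pairs, against 16.1% of all genes. The collagen gene Col1a2 was at -0.61 ± 0.15 (limma adjusted p = 0.17), with pair differences of -1.02, -0.51 and -0.31, and Col5a2 at -0.34 ± 0.14 (limma adjusted p = 0.48). Col1a1, whose product joins that of Col1a2 in type I collagen, was higher in all 3 pairs at 0.18 ± 0.09 (limma adjusted p = 0.60). Acta2, the smooth muscle actin gene by which myofibroblasts are recognised, read 3998, 7083 and 5299 in controls and 1922, 4993 and 3937 in strained cultures. It was lower in each pair, with log2 differences of -1.05, -0.50 and -0.43 and a fitted value of -0.66 ± 0.12 that narrowly missed the threshold (limma adjusted p = 0.0506). All 10 tested smooth muscle and myofibroblast markers had negative values, against 53% of all genes, with none called and a median of -0.37. Of the 10, 5 were lower in all 3 pairs, against 16.1% of all genes. Fibroblast markers differed widely in signal, and 6 of 17 passed the filter on dim probe sets. Col5a2 lay between 1821 and 3710, Vim between 747 and 1797 and Col3a1 between 610 and 1661 over the arrays. Postn, Lum and Twist1 were among the dim ones, with no signal above 18.5, 67.4 and 38.9. The part of these cell types in the lower Fbn1, Lox and Ltbp1 signals was not tested.

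**Figure D5:**
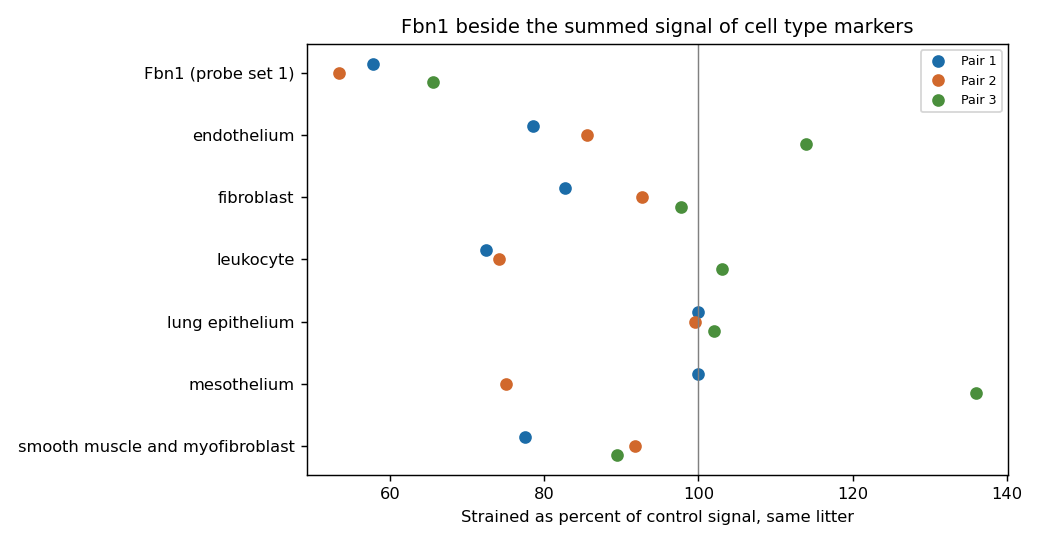
Strained signal as percent of the control of the same litter, for Fbn1 (probe set 1368829_at) and for the summed signal of markers of 6 cell types, with a point for each pair. Fbn1 lies from 53.4% to 65.6%, the fibroblast and smooth muscle sums from 77.5% to 97.8%, and the leukocyte sum from 72.5% to 103%. Each sum is weighted to its brightest markers, such as Tagln, and Col1a1, which was higher in all 3 pairs.

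The genes with profiles most like that of Fbn1 were found by the root-mean-square gap between centred log2 profiles over the 6 arrays, among 7163 genes. The closest were Parva, which encodes an actin-binding protein of focal adhesions, at a gap of 0.144, Wdr90 at 0.150, the mitotic kinase gene Cdk1 at 0.150, Pdzrn3 at 0.159 and the microtubule-binding protein gene Eml1 at 0.160, where the median gene was at 0.465. Within the elastic fibre set, the second Fbn1 probe set was at 0.181. Lox probe set 1368172_a_at and Ltbp1 were at 0.229 and 0.233, with 55 and 61 genes closer. The other Lox probe set, 1368171_at, was at 0.347, with 847 genes closer, and Eln was at 0.54, with 5319 genes closer. Fbln5 was at 0.428, Fbln2 at 0.462 and Loxl1 at 1.36, with 2649, 3520 and 7161 genes closer. These gaps share the litter pairs and the strain contrast and are a description of 6 arrays.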

How the data were processed

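The 6 arrays were compared as 3 litter pairs. The deposited values are linear intensity, 1 value per probe set and array, from MAS5 (version 5.0, per the submitters' processing notes). All columns had a 2% trimmed mean from 500.129 to 500.148, so the authors deposited scaled arrays. Run information files held other settings, per the file headers, of which run day and chip lot were used.

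Signals were transformed as log2(signal + 16). The 57 control probe sets and then the dimmest 40% were left out, leaving 9519. Limma 3.58.1 (R 4.3.3) was fitted with pair, group and a variance trend, with Benjamini-Hochberg adjustment at 0.05; SEs have 11 degrees of freedom, 9 of them borrowed from other probe sets. Pairing comes from the design text. Deviations from group means of same-numbered arrays correlated at 0.51, 0.47 and 0.43, while mismatched arrays gave -0.35 to -0.12. Arrays of a pair also share run day and chip lot.

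Platform symbols (12783 probe sets with 1, 312 with several, 2771 with none) were looked up in RefSeq by gene ID, and none changed. Genes, lists and tests were chosen with earlier results of these data known. Named beside the 9 genes were the 4 of each pathway list with the smallest p, any called, and the 5 nearest in profile to Fbn1 and to Eln. Fbln1, Tgfb2, Itgb1, Vcan, Mmp9 and the markers other than Epcam, Col1a1, Tagln, Acta2 and Lyz2 were named after their values were seen. The fit was tested on simulated data, where it called 43.4% of log2 changes of 0.5 and 93.2% of changes of 1. Of its calls there, 7.5% were false. Alternatives were the pseudocount, dim filter, scaling, variance trend, block, probe set of a gene, and left-out pairs or arrays.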

Additional observations from a re-analysis of the deposited data

How the results depend on the processing

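Both Fbn1 probe sets, both Lox probe sets and Ltbp1 were negative under all 18 alternatives run, while Eln, Fbln5, Fbln2 and Loxl1 took both signs. The number of elastic fibre probe sets lower in every pair stayed between 4 and 6. With no filter on dim probe sets 5 probe sets of the array were called, none of an elastic fibre gene, and the median difference over the elastic fibre probe sets was -0.20, while with the lowest 60% dropped it was -0.44. With no variance trend 1 probe set of the array was called, with run day as the block 1, and with no replicate block, which ignores the litter pairing, 0; in each case 0 of these were elastic fibre probe sets. When a pair, or an array in the fit with no block, was left out, calls over the array ran from 0 to 52 (52 without pair 1, 18 without pair 2 and 0 in each fit that left out a single array), elastic fibre calls from 0 to 2 and calls in the pathway lists from 0 to 2. The median over the elastic fibre probe sets ran from -0.36 to -0.21 without a pair (lowest in size without pair 2), from -0.50 to -0.10 without a control array (lowest in size without control 3) and from -0.48 to -0.28 without a strained array. With no filter more probe sets are tested and with a left-out pair fewer arrays; otherwise the cause of these changes was not tested. Quantile or median scaling moved the median of all probe sets by less than 0.1, from -0.018 to -0.0051 and 0.014. Without detection calls, signal over background could be judged only by the dim filter, which Ltbp2 did not pass.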

Other observations

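The genes nearest in profile to Eln were picked for matching its values over the arrays, so a pattern shared with Eln is no separate result. Gnl3l had a gap of 0.0595 from Eln, Cap2 0.082, Cdkal1 0.0993, Armcx4 0.112 and Luc7l 0.123, where the median gene was at 0.442. Gnl3l, which encodes a nucleolar GTPase, read 205, 169 and 396 in controls and 207, 268 and 348 in strained cultures. Its highest signals were those of litter 3 in both groups, as for Eln, to which it was matched. The arrays of pair 3 were also the only ones of their chip lot, so litter and lot cannot be told apart here. Itgb1, the integrin beta chain through which cells bind matrix, was also highest in litter 3, at 4891 in control and 4018 in strained cells, against 2249 to 2757 on the other 4 arrays.

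Several pathway genes could not be followed at these signals. All 5 probe sets of Vcan, a proteoglycan that binds fibrillin, and both of Mmp9, an elastase, lay below the dim filter. The second probe set of Tgm2, also below it, read 94.1, 249 and 140 in controls and 83.1, 114 and 54.3 in strained cultures, lower in all 3 pairs.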
